A study of Mus musculus with 12 samples.

Results

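The genes described here are 8 structural genes of epithelial cell junctions: the claudins Cldn3, Cldn4, Cldn7 and Cldn18, the tight junction genes Ocln and Tjp1, the adherens junction gene Cdh1 and the gap junction gene Gja1. They were taken by symbol after the Ensembl identifiers of the files had been matched to the GENCODE mouse annotation, and all 8 were among the 16080 genes measured. RNA was sequenced from alveolar epithelial type 2 cells (AEC2), the surfactant-making cells of the lung, of female mice of the Bl6 strain aged 56 postnatal days. The groups of 4 libraries each were C185G, which expressed the C185G mutant of surfactant protein C in the BRICHOS domain; C185Gneo, described in the series as a hypomorphic control; and WT. All 3 groups had received intraperitoneal tamoxifen at 200 mg/kg on 2 days, and AEC2 were isolated at day 7. Whether a library holds 1 animal or several is not given in the labels, so p-values measure the spread between these libraries, which may be in part technical.

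Tight junctions seal the space between neighbouring epithelial cells near the apical surface. Claudins and occludin span the membrane there, and the claudins present decide which ions can pass; scaffold proteins such as ZO-1 tie them to actin. Adherens junctions below them hold cells together through E-cadherin and its catenins, and gap junctions are channels of connexins through which neighbouring cells exchange ions and small molecules. Claudin-3, claudin-4 and claudin-18 are the claudins best known from the alveolar epithelium, where they help to keep fluid out of the air space.

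Groups were taken from the genotype field. The titles of the C185Gneo libraries carry the name C185G, and those of the C185G libraries carry another code, so field and titles do not use the same names. Sftpc, the edited gene, averaged 2833 ± 256 normalized CPM in C185G libraries, 895 ± 143 in C185Gneo libraries and 7467 ± 194 in WT libraries (SD, n = 4 each). Normalized CPM are the recovered read counts on the authors' scaling, expressed per 1e+06 counts of an average library. Libraries held 15659512 to 23444287 counts over the measured genes. The 8 junction genes had 2294 to 31298 counts in a library, so counting error was at most 2.09% of a value.

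Marker genes of AEC2 and of other cell types also differed in level between genotypes. Of all genes measured, limma called 27.3% higher and 27.8% lower in C185G against WT, at an adjusted p under 0.05. These shares were 29.2% and 28.7% in C185G against C185Gneo, and 0.249% and 0.292% in C185Gneo against WT. The 12 AEC2 markers summed to 14730 to 17690 normalized CPM in C185G libraries, 31780 to 36050 in C185Gneo libraries and 35050 to 41170 in WT libraries, and each of the 12 fell in C185G against WT. Sftpc is on this list and was its only gene called in C185Gneo against WT. The other 11 were not called there, and the median change of the 12 was 0.01 log2 units. A list of 20 genes of the alveolar transitional state, keratins among them, summed to 12160 to 13090 in C185G libraries, against 5951 to 7092 in C185Gneo and 6953 to 7461 in WT libraries. The 9 mesothelial markers, which are of another epithelium with junctions of its own, summed to 1602 to 1849 in C185G libraries, 721 to 1479 in C185Gneo libraries and 1169 to 1406 in WT libraries. Of these 9, 1 was called higher and 8 were not called in C185G against WT. Against C185Gneo, 4 were called higher and 5 were not called. Krt19 is on both the mesothelial and the transitional list. The 12 club and goblet markers summed to 4684 to 5441, 6214 to 7673 and 5487 to 7613 in C185G, C185Gneo and WT libraries, and the 12 ciliated markers to 1189 to 1779, 1482 to 1949 and 1636 to 2284. The sums of the 16 alveolar type 1 markers overlapped between all groups, at 4798 to 5932, 4417 to 5713 and 4989 to 6393. Of these 16, 4 were called higher and 3 lower in C185G against WT, beside the 27.3% and 27.8% of all genes. Their estimates ran from -1.67 to 1.35 log2 units. The 14 measured endothelial markers of 17 summed to 279 to 308, 303 to 395 and 316 to 390, the 14 mesenchymal markers to 757 to 1023, 257 to 655 and 580 to 890, and the 9 measured leukocyte markers of 16 to 75.8 to 142, 40.9 to 58.0 and 43.0 to 74.9, in the same order of groups. Of 7 basal cell markers 3 were measured, at a sum of 16.3 to 24.7, 21.0 to 26.7 and 23.6 to 26.1, and Krt5 and Trp63, which define basal cells, were not among the measured genes. The part of these differences in the junction gene changes was not tested, and in bulk RNA fewer cells of a type cannot be told apart from less RNA per cell.

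Per kilobase of merged exons, the order of the 8 junction genes was the same in all 3 genotypes. Cldn4, a claudin of tight and highly resistive epithelia, was at the top, with 732 ± 23.8 normalized CPM per kilobase in C185G libraries, 504 ± 57.5 in C185Gneo libraries and 535 ± 44.4 in WT libraries (SD, n = 4 each). Cldn3 came next at 358 ± 15.5, 426 ± 17.6 and 435 ± 34.4, followed by Cdh1 at 278 ± 9.86, 305 ± 8.04 and 317 ± 7.60 and Cldn18 at 134 ± 11.9, 143 ± 4.65 and 147 ± 11.5. Cldn7 and Gja1 lay at 96.4 to 117, and Tjp1 and Ocln were lowest at 38.1 to 45.6, as group means per kilobase. Libraries of Cldn7 and Gja1 overlapped in every genotype, and those of Tjp1 and Ocln overlapped in C185G and WT libraries. Cldn4 and Cldn3 overlapped in C185Gneo libraries alone, where they spanned 438 to 574 and 412 to 452; in C185G libraries they were farthest apart, at 715 to 766 and 342 to 378.

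**Figure D1:**
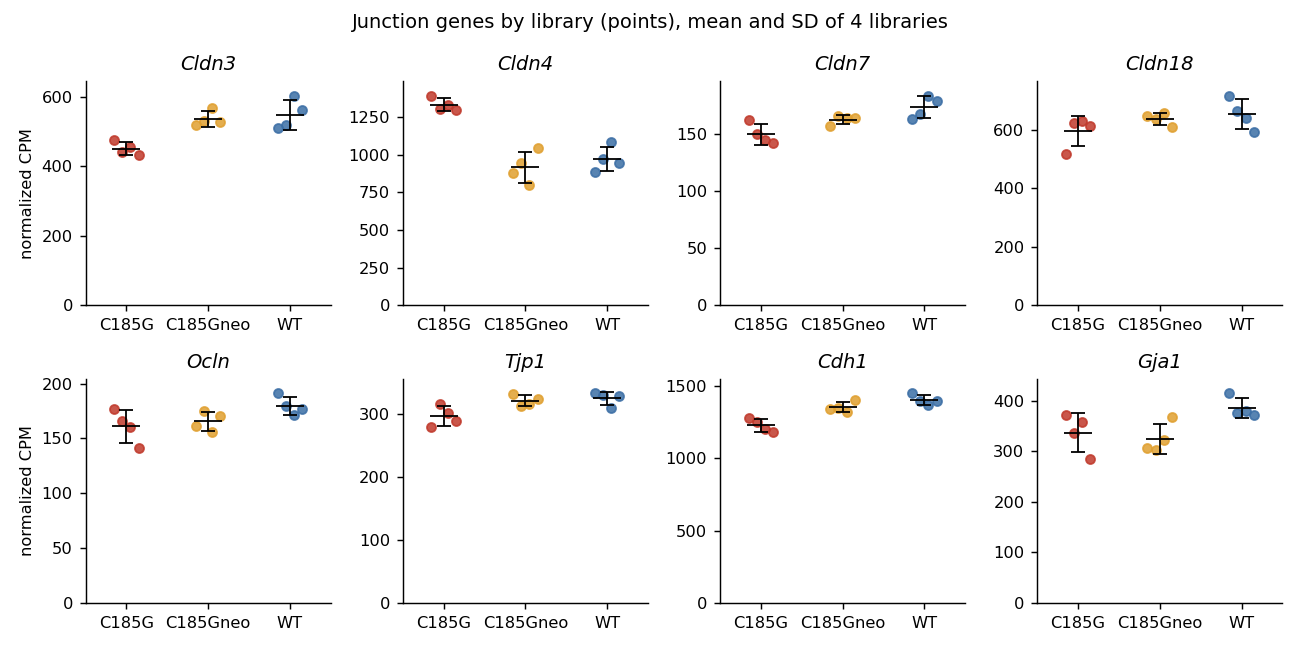
Normalized CPM (y axes, each starting at 0) of the 8 junction genes in every library, with C185G, C185Gneo and WT from left to right in each panel; points are libraries, the bar is the mean and the whiskers 1 SD of 4 libraries. Cldn4 is the only panel in which the C185G libraries lie above both other groups; Cldn3 and Cdh1 lie below both.

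In C185G against WT AEC2, Cldn4 was higher and Cldn3, Cldn7, Cdh1 and Tjp1 were lower, all by modest amounts. These 5 of 8 genes passed an adjusted p of 0.05, 1 higher and 4 lower, in a transcriptome in which 55.0% of all genes passed; the share of the junction genes is close to that background. The count depends on the scaling: it was 2 with library totals, 3 under quantile normalization and 7 with median of ratios. The libraries of both groups did not overlap for 5 of the 8 genes (Cldn3, Cldn4, Cldn7, Cdh1 and Gja1), against 48.7% of all genes. The median size of the change was 0.20 log2 units over the 8 genes and 0.34 over all genes measured. Of the 8 estimates 7 were below 0, with a median of -0.18, against -0.0004 over all genes.

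Against C185Gneo, the C185G group showed 3 of the same changes: Cldn4 was higher, and Cldn3 and Cdh1 were lower. These 3 of 8 compare with 57.8% of all genes called in this comparison, and the same 3 were the ones whose libraries did not overlap, against 49.9% of all genes. Both comparisons use the same C185G libraries, so they are not independent of each other.

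**Figure D2:**
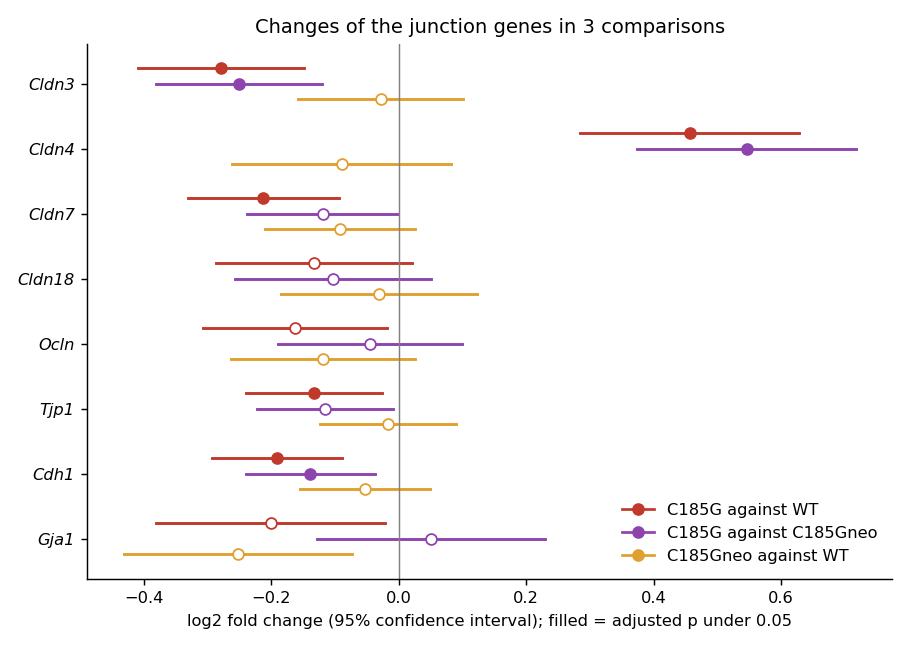
Log2 fold change (x axis) of each junction gene with its 95% confidence interval in the 3 comparisons of genotypes, C185G with WT, C185G with C185Gneo, and C185Gneo with WT; filled points passed an adjusted p of 0.05. Cldn4 lies right of 0 in both C185G comparisons (0.46 and 0.55), Cldn3 and Cdh1 lie left of it in both, and no point of C185Gneo against WT is filled.

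Cldn4 encodes claudin-4, a barrier-forming claudin that is known to rise in the alveolar epithelium after injury. It had 1391, 1300, 1330 and 1299 normalized CPM in C185G libraries, 878, 947, 795 and 1042 in C185Gneo libraries and 888, 971, 1081 and 947 in WT libraries. Every C185G library was higher than every library of the other genotypes, while C185Gneo and WT libraries overlapped. Cldn4 rose 1.37-fold in C185G against WT (adjusted p = 0.00027; log2 change 0.46 ± 0.08, SE) and 1.46-fold against C185Gneo (0.55 ± 0.08; adjusted p = 5.5e-05).

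Cldn3, the neighbouring gene, moved the other way. It encodes claudin-3, a barrier-forming claudin of most simple epithelia. Its levels were 476, 441, 456 and 431 normalized CPM in C185G libraries, 518, 530, 569 and 529 in C185Gneo libraries and 509, 518, 603 and 561 in WT libraries. All 4 C185G libraries were below all 8 others. Cldn3 fell by 0.28 ± 0.06 log2 units relative to WT (SE; adjusted p = 0.00147) and by 0.25 ± 0.06 against C185Gneo (adjusted p = 0.00297).

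The count ratio of Cldn4 to Cldn3 within a library does not depend on how libraries are scaled. It was 2.92, 2.95, 2.92 and 3.01 in C185G libraries, 1.69, 1.79, 1.40 and 1.97 in C185Gneo libraries and 1.74, 1.87, 1.79 and 1.69 in WT libraries. The mean ratio was 2.95 ± 0.0437 in C185G, 1.71 ± 0.239 in C185Gneo and 1.77 ± 0.0787 in WT libraries (SD, n = 4 each), and the C185G libraries stood above all others. The log2 ratio differed by 0.73 between C185G and WT, by 0.80 between C185G and C185Gneo and by -0.06 between C185Gneo and WT. This ratio was chosen after both genes had been seen to separate the C185G libraries in opposite directions, which fixes that it separates them too, so it is given as a description with no test.

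**Figure D3:**
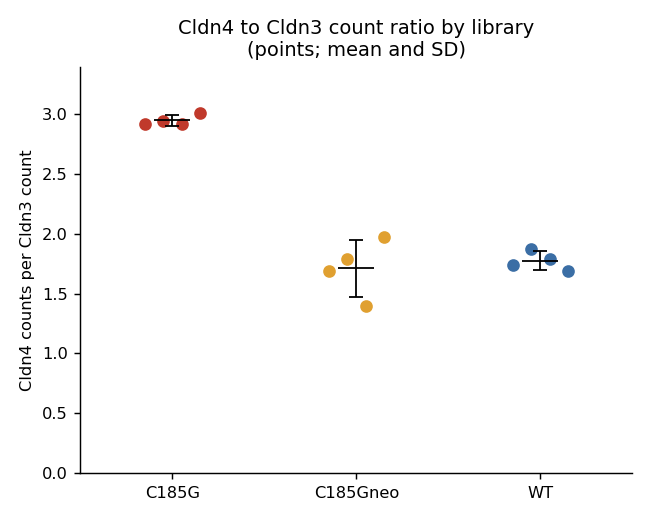
Cldn4 counts per Cldn3 count (y axis, starting at 0) in each library of C185G, C185Gneo and WT, left to right; points are libraries, bars the mean and whiskers 1 SD. The C185G libraries sit at 2.92 to 3.01 and all others at 1.40 to 1.97.

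Cldn4 and Cldn3 lie on chromosome 5 (GRCm38), Cldn4 at 134945119-134946934 on the minus strand and Cldn3 at 134986214-134987472 on the plus strand, with annotated starts 39280 bases apart and pointing away from each other. Of 13 other measured genes within 250000 bases of either, Abhd11, Abhd11os, Mlxipl, Tbl2, Bcl7b and Baz1b were called lower in C185G against WT. Bud23 alone was called higher. Over all genes, 27.8% were called lower and 27.3% higher. Mlxipl, a glucose-responsive transcription factor, fell by 1.63 log2 units (adjusted p = 1.87e-08), and Bud23, a methyltransferase of ribosomal RNA, rose by 0.27 (adjusted p = 0.00193). Cldn3 shares 40 bases with the antisense gene Wbscr25, at 3.02 normalized CPM in C185G and 4.30 in WT libraries; since the strand setting of the counting is not given, reads in the shared bases cannot be assigned.

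The 250 bases before both starts are shown because these neighbours changed in opposite directions. They are from the RefSeq promoter table (GRCm38.p6), 5′ to 3′ on each gene's own strand, with AP-1 letters (TGANTCA) and the E-box bound by Snail and ZEB repressors (CAGGTG, or CACCTG on the other strand) in capitals; chr5:134946935-134947184 on the minus strand for Cldn4 and chr5:134985964-134986213 on the plus strand for Cldn3.
Cldn4: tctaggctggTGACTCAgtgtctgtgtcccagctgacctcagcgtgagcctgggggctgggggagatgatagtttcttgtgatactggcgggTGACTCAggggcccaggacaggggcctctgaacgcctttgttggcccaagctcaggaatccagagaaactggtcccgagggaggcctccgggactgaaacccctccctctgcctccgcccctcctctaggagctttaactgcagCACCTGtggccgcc
Cldn3: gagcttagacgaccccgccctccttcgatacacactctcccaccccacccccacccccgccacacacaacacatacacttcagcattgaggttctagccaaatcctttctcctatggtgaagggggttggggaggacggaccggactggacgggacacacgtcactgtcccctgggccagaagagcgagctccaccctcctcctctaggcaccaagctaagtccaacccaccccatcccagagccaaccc
Within 250 bases before to 50 after the start, the Cldn4 window held 2 AP-1 matches, at -240 and -158 from the start, and 2 E-boxes, at -14 and 12. The Cldn3 window held no AP-1 match and 1 E-box, at 32. Other letters were searched as well. The GC box (GGGCGG) was found at -44 and -5 for Cldn4 and at -236 for Cldn3. TEAD, TATA box and FOXA letters were in neither of these windows. Over all 32841 windows of this length, 7.81% held an AP-1 match on either strand and 20.2% held the E-box. Windows were given for 7 of the 8 junction genes: AP-1 matches were found in 2 of them (Cldn4 and Gja1) and the E-box in 4 (Cldn3, Cldn4, Cldn7 and Ocln), with a match in at least 1 window of a gene counted. The 7 genes had 10 windows between them, so these counts of genes cannot be set directly against the shares of windows. The grainyhead core AACNGGTT (AACCNGTT on the other strand) was in none of the 7 and in 2.09% of all windows. A match of letters is a description, not a binding site.

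Cldn7 encodes claudin-7, a claudin that also occurs along the lateral membrane. It measured 162, 150, 144 and 142 normalized CPM in C185G libraries, 156, 165, 164 and 164 in C185Gneo libraries and 163, 168, 183 and 179 in WT libraries. The C185G libraries were all below the WT libraries, the closest pair being 162 and 163, and overlapped the C185Gneo libraries. It fell by 0.21 ± 0.05 log2 units against WT (adjusted p = 0.00478), a call that is lost when libraries are scaled to their totals (-0.13, adjusted p = 0.0718). Against C185Gneo the change was -0.12 ± 0.05 (adjusted p = 0.0765).

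Cldn18, whose lung isoform is the most lung-specific claudin and which is made by both alveolar cell types, showed no call. It had 518, 624, 631 and 612 normalized CPM in C185G libraries, 648, 635, 659 and 611 in C185Gneo libraries and 717, 663, 639 and 594 in WT libraries. All 3 groups overlapped, and 1 C185G library was lower than the rest. The change against WT was -0.13 (95% interval -0.29 to 0.02; adjusted p = 0.129) and that against C185Gneo -0.10 (-0.26 to 0.05; adjusted p = 0.236), so a loss of more than 0.29 log2 units against WT lies outside the interval. Cldn18 overlaps the antisense gene Gm16004 over 8869 bases, and that gene was not among those measured.

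Ocln encodes occludin, a membrane protein of the tight junction strand that does not itself form the pore. It was at 177, 165, 160 and 141 normalized CPM in C185G libraries, 161, 175, 156 and 170 in C185Gneo libraries and 191, 180, 172 and 177 in WT libraries. C185G libraries overlapped both other groups. The change against WT was -0.16 ± 0.07 log2 units (adjusted p = 0.0536), close to the threshold, and that against C185Gneo -0.04 ± 0.07 (adjusted p = 0.589).

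Tjp1 encodes ZO-1, the scaffold that links claudins and occludin to actin. Its values were 279, 315, 301 and 289 normalized CPM in C185G libraries, 332, 312, 315 and 323 in C185Gneo libraries and 332, 329, 309 and 328 in WT libraries. The groups overlapped at 1 library on each side, the highest C185G library at 315 and the lowest WT library at 309. Tjp1 fell by 0.13 ± 0.05 log2 units against WT (adjusted p = 0.0346), the weakest of the 5 calls: it was lost under 6 of the 10 alternative settings, and without either of 2 C185G or any of 3 WT libraries (adjusted p 0.072 to 0.087). Against C185Gneo the change was -0.12 ± 0.05 (adjusted p = 0.0585). Tjp1 overlaps the annotated genes Gm44792 over 1628 bases and Gm44794 over 411 bases on its own strand. It also overlaps the pseudogene Gm44795 over 319 bases on the other strand, and none of them was among the genes measured.

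Cdh1 encodes E-cadherin, the adhesion receptor of epithelial adherens junctions, and was among the most abundant of the 8 genes. It had 1276, 1254, 1204 and 1182 normalized CPM in C185G libraries, 1339, 1350, 1320 and 1403 in C185Gneo libraries and 1449, 1395, 1369 and 1399 in WT libraries. All C185G libraries were below all 8 others. On the authors' scaling Cdh1 fell by 0.19 ± 0.05 log2 units against WT (adjusted p = 0.00364) and by 0.14 ± 0.05 against C185Gneo (adjusted p = 0.0223), but under quantile normalization the estimates turned to 0.020 (adjusted p = 0.781) and 0.033 (adjusted p = 0.633). With library totals they were -0.11 (adjusted p = 0.0525) and -0.07 (adjusted p = 0.177). The call against C185Gneo was also lost without C185Gneo library 4 or C185G library 3 or 4 (adjusted p 0.0553 to 0.064). The direction of Cdh1 therefore depends on the scaling, unlike that of Cldn3 and Cldn4.

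**Figure D4:**
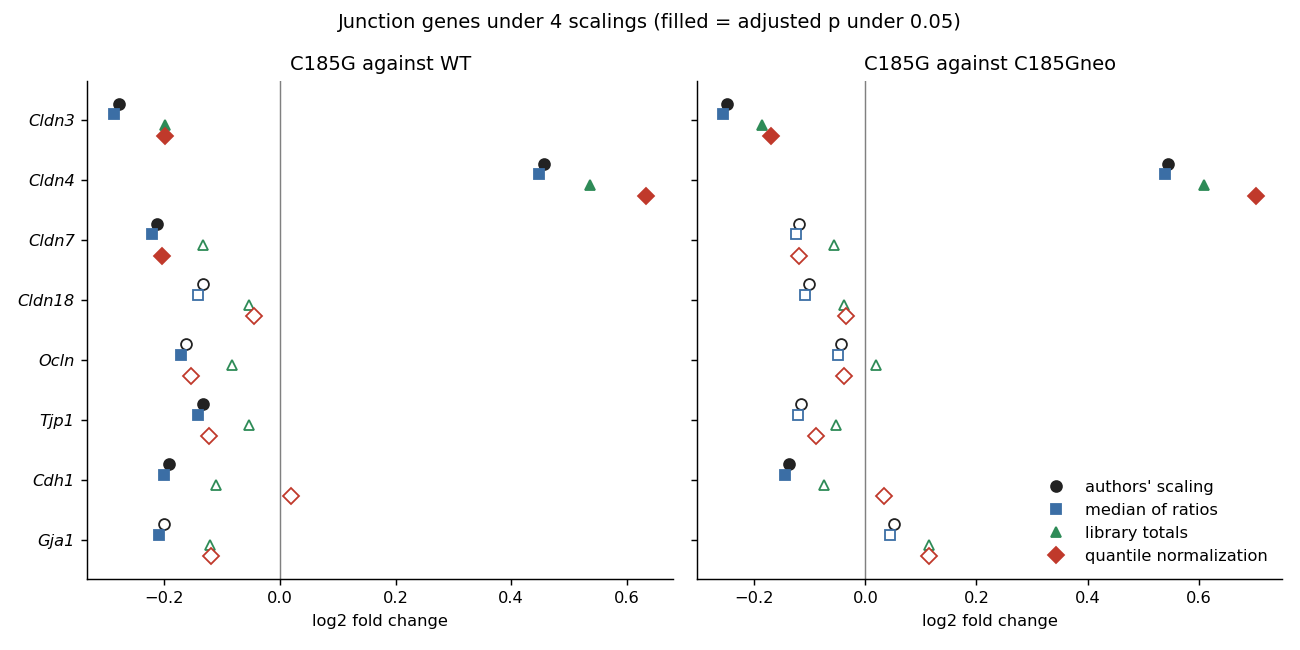
Log2 fold change (x axis) of the 8 junction genes under the authors' scaling, median of ratios, library totals and quantile normalization, for C185G against WT (left) and C185G against C185Gneo (right); filled symbols passed an adjusted p of 0.05. Cldn4 (filled, 0.45 to 0.63 against WT) and Cldn3 (filled, -0.29 to -0.20) keep their side under each scaling, whereas Cdh1 crosses 0 under quantile normalization.

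Gja1 encodes connexin 43, the gap junction protein through which alveolar cells share calcium signals. It was at 372, 336, 358 and 284 normalized CPM in C185G libraries, 307, 303, 323 and 368 in C185Gneo libraries and 415, 377, 380 and 373 in WT libraries. All C185G and C185Gneo libraries were below every WT library, although the closest C185G and WT libraries were at 372.1 and 373.0, and the C185G and C185Gneo libraries overlapped. Neither difference passed the threshold: the change was -0.20 ± 0.08 log2 units in C185G against WT (adjusted p = 0.0548) and -0.25 ± 0.08 in C185Gneo against WT (unadjusted p = 0.00937, adjusted p = 0.301). Between C185G and C185Gneo it was 0.05 (95% interval -0.13 to 0.23; adjusted p = 0.619). Gja1 is the only one of the 8 genes for which the C185Gneo estimate against WT was larger in size than the C185G estimate.

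In C185Gneo against WT, limma called none of the 8 genes, against 0.541% of all genes. An unadjusted p under 0.05 was found for 1 of the 8 (Gja1) and for 1534 of all 16080 genes. Gja1 was also the only 1 of the 8 whose libraries did not overlap between these groups, against 6.87% of all genes. All 8 estimates were below 0, at -0.25 for Gja1 and -0.12 to -0.02 for the others. Their median was -0.07, against -4.5e-05 over all genes. The widest interval other than that of Gja1 ran from -0.26 to 0.08, for Cldn4.

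Several other junction genes had larger estimates than these 8, in both directions. Over all genes, 27.3% rose and 27.8% fell in C185G against WT, and with libraries scaled to their totals 59.9% of calls were higher, against 49.6% on the authors' scaling. Of the other claudins, 11 of 21 listed were measured; against WT, 1 rose and 5 fell in C185G, with a median of -0.32 against -0.0004 for all genes. Cldn2, a claudin that forms a pore for cations, was at 5.37 ± 0.948 normalized CPM in C185G, 2.80 ± 0.432 in C185Gneo and 2.75 ± 0.478 in WT libraries, a rise of 0.96 log2 units against WT (adjusted p = 0.000393). Cldn22 was at 0.695 ± 0.200, 1.61 ± 0.326 and 1.32 ± 0.138 and fell by 0.94 (adjusted p = 0.00479) at 8 to 42 counts per library. Cldn8, at 4.96 ± 1.10, 8.46 ± 0.589 and 7.70 ± 1.81, fell by 0.62 (adjusted p = 0.0101). These 3 claudins are far below the members in level, so that Cldn2 at its highest library had 6.71 normalized CPM against 1299 for Cldn4 at its lowest C185G library. Cldn10, which the list of club cell markers also holds, was at 29.5 ± 3.04, 38.7 ± 5.79 and 41.5 ± 7.97 and fell by 0.48 (adjusted p = 0.00934). Of the 12 club and goblet markers, with Cldn10 included, 4 fell and 8 were not called in C185G against WT. Cldn5, the endothelial claudin that alveolar cells also make at low level, was at 3.36 ± 0.419, 5.86 ± 1.80 and 4.49 ± 1.06 (-0.39 against WT, adjusted p = 0.134), and the endothelial cadherin Cdh5 at 5.11 ± 0.823, 10.8 ± 2.97 and 9.46 ± 2.17 fell by 0.87 (adjusted p = 0.00245).

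Among 12 other membrane proteins of the tight junction, all measured, 2 rose and 3 fell in C185G against WT (median 0.08). The tricellular protein tricellulin, encoded by Marveld2, fell by 0.25 log2 units, at 32.9 ± 3.02 normalized CPM in C185G, 40.5 ± 1.49 in C185Gneo and 39.1 ± 0.956 in WT libraries (adjusted p = 0.00514). Its relative Marveld3 rose by 0.32, at 47.4 ± 4.66, 40.7 ± 1.34 and 37.8 ± 1.02 (adjusted p = 0.00115). Crb3, an apical polarity protein, rose by 0.27 (93.9 ± 4.73, 80.8 ± 5.27 and 78.0 ± 2.76; adjusted p = 0.00134). Cxadr, an adhesion molecule that is also a virus receptor, fell by 0.35 (190 ± 28.2, 239 ± 13.0 and 240 ± 21.3; adjusted p = 0.00711).

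Of the genes of the tight junction plaque, more fell than rose. Of 23 measured, 4 rose and 12 fell in C185G against WT, with a median of -0.17. Pard3, the polarity scaffold, fell by 0.71 log2 units (145 ± 12.9 normalized CPM in C185G, 248 ± 7.07 in C185Gneo and 238 ± 19.8 in WT libraries; adjusted p = 1.57e-06), and its kinase partner Prkcz by 0.55 (73.8 ± 6.55, 108 ± 4.12 and 108 ± 6.04; adjusted p = 9.65e-06). Tjp3, encoding ZO-3, fell by 0.70 (85.8 ± 6.36, 109 ± 5.60 and 140 ± 15.9; adjusted p = 6.38e-06), a larger estimate than that of Tjp1. Amotl2, an angiomotin, fell by 0.79 (279 ± 19.5, 586 ± 71.0 and 482 ± 32.2; adjusted p = 2.79e-06). Pard6b, a further member of the polarity complex, rose by 0.41 (244 ± 30.7, 163 ± 7.51 and 184 ± 21.8; adjusted p = 0.00256), and Arhgef2, a guanine nucleotide exchange factor held at tight junctions, rose by 0.33 (302 ± 9.70, 244 ± 9.24 and 241 ± 15.2; adjusted p = 0.000164).

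**Figure D5:**
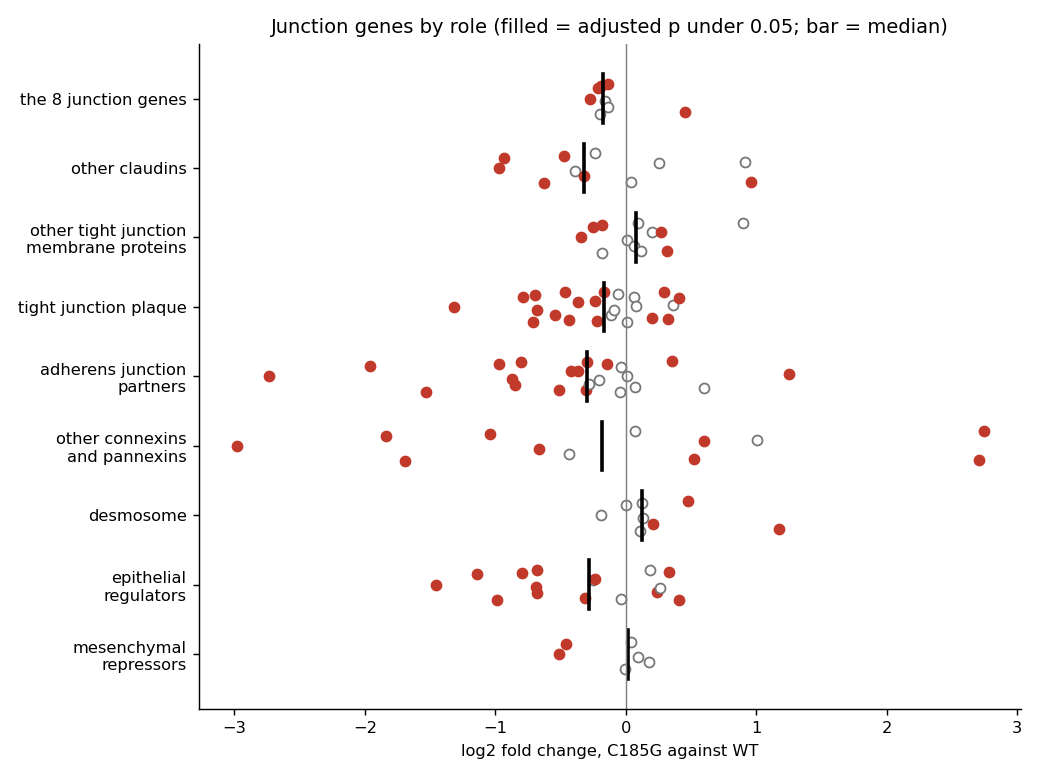
Log2 fold change in C185G against WT (x axis) of every measured junction gene, pannexin or regulator of the lists, by role (rows). Each point is a gene, filled where its adjusted p was under 0.05, and the bar is the median of the row. The 8 junction genes span -0.28 to 0.46, whereas connexins and pannexins include Gjb1 at -2.98 and Panx2 at 2.70.

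Ctnnb1 and several other adherens junction genes had estimates larger in size than that of Cdh1. Of 22 measured adherens junction genes, 2 rose and 13 fell, with a median of -0.30, against 27.3% and 27.8% of all genes. The 13 include the endothelial cadherin Cdh5. Other catenins changed less than Cdh1: Ctnna1 (0.01, adjusted p = 0.873) and Jup (0.07, adjusted p = 0.252) were not called, and Ctnnd1 was at -0.14 (adjusted p = 0.0493). Ctnnb1, encoding beta-catenin, which binds the tail of E-cadherin and also carries Wnt signals, had 992, 908, 933 and 838 normalized CPM in C185G libraries, 1699, 1599, 1580 and 1637 in C185Gneo libraries and 1808, 1785, 1555 and 1492 in WT libraries. The highest C185G library at 992 lay below the lowest of the others at 1492, a fall of 0.85 ± 0.07 log2 units against WT (adjusted p = 4.02e-07). Ctnnd2, a delta-catenin, fell by 2.74 (3.05 ± 0.369 in C185G, 21.4 ± 3.42 in C185Gneo and 20.7 ± 3.80 in WT libraries; adjusted p = 6.86e-09), Cdh16 by 1.96 (12.6 ± 1.81, 74.1 ± 16.1 and 48.9 ± 3.42; adjusted p = 1.34e-07) and the armadillo protein Pkp4 by 0.97 (87.3 ± 7.96, 156 ± 6.11 and 171 ± 4.71; adjusted p = 2.61e-08). Those that rose were Cdh3, encoding P-cadherin (10.3 ± 1.13, 3.55 ± 2.08 and 4.33 ± 0.758; 1.25, adjusted p = 0.0104), and Vcl, encoding the actin linker vinculin (318 ± 11.6, 230 ± 7.93 and 249 ± 16.4; 0.35, adjusted p = 9.63e-05).

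Connexins and pannexins other than Gja1 showed the widest spread. Of 22 listed, 12 were measured, and 4 rose and 5 fell in C185G against WT. Gjb1, encoding connexin 32, was at 2.88, 2.24, 1.96 and 1.54 normalized CPM in C185G libraries, 24.8, 20.3, 22.5 and 22.9 in C185Gneo libraries and 18.5, 17.7, 19.9 and 12.3 in WT libraries. It fell by 2.98 ± 0.18 log2 units (adjusted p = 2.1e-08), with 25 to 580 counts per library. Gjb6, encoding connexin 30, fell by 1.04 (21.3 ± 1.97, 48.1 ± 4.46 and 43.8 ± 3.73; adjusted p = 4.45e-07). In the other direction, Panx2, a pannexin, rose by 2.70 (11.01 ± 1.82, 1.43 ± 0.194 and 1.67 ± 0.340; adjusted p = 3.65e-08). Panx1 rose by 0.52 (6.30 ± 0.884, 3.98 ± 0.997 and 4.45 ± 1.09; adjusted p = 0.0415), a call lost without the trend and without any of 2 WT or 3 C185G libraries.

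Of 8 measured genes of desmosomes, the spot junctions that anchor keratin filaments, 3 rose, none fell and 5 were not called, with estimates from -0.19 to 1.18. Over all genes, 27.3% rose and 27.8% fell in this comparison of C185G with WT. The sum of transitional genes, which holds keratins, was higher in the same libraries, and a link to the desmosome genes was not tested. Pkp3, encoding the plaque protein plakophilin 3, rose by 1.18 log2 units (112 ± 12.2 normalized CPM in C185G, 47.7 ± 4.55 in C185Gneo and 49.5 ± 3.19 in WT libraries; adjusted p = 9.79e-08). Perp, a membrane protein of desmosomes and a p53 target, rose by 0.48 (108 ± 13.3, 80.1 ± 4.67 and 76.9 ± 3.48; adjusted p = 0.000178), and Pkp2 by 0.21 (119 ± 2.72, 99.5 ± 5.26 and 103 ± 5.73; adjusted p = 0.00424). Dsp, encoding the linker desmoplakin, was at 344 ± 8.60, 298 ± 9.64 and 315 ± 22.1 (0.13, adjusted p = 0.0581).

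Of a list of regulators of epithelial genes, mostly transcription factors known for junction genes but also splicing factors, 16 were measured, and 3 rose and 9 fell in C185G against WT (median -0.28). Elf5 fell by 1.14 log2 units (33.6 ± 1.72 normalized CPM in C185G, 83.7 ± 8.44 in C185Gneo and 74.0 ± 2.78 in WT libraries; adjusted p = 2.01e-08), Elf3 by 0.99 (81.5 ± 11.01, 156 ± 9.65 and 161 ± 15.8; adjusted p = 8.91e-07), Ehf by 0.69 (174 ± 15.5, 277 ± 38.5 and 282 ± 40.9; adjusted p = 0.000139) and Grhl2, a grainyhead factor known to activate Cdh1 and Cldn4, by 0.68 (63.1 ± 8.22, 101 ± 4.45 and 100 ± 3.66; adjusted p = 5.51e-06). Those that rose were the transcription factor Klf5 by 0.24 (adjusted p = 0.00122), named after its value was seen, and 2 splicing factors. These splicing factors, Esrp1 and Esrp2, rose by 0.41 (157 ± 22.7, 114 ± 3.21 and 117 ± 0.763; adjusted p = 0.000516) and 0.33 (167 ± 14.5, 131 ± 6.23 and 133 ± 3.57; adjusted p = 0.00049). Among 6 measured mesenchymal repressors of junction genes, none rose and 2 fell against WT: Tcf4 by 0.51 (44.5 ± 7.98, 56.4 ± 2.76 and 62.9 ± 4.90; adjusted p = 0.000921) and Snai1 by 0.46 (3.93 ± 0.447, 4.60 ± 0.438 and 5.38 ± 0.329; adjusted p = 0.00613). Zeb1 was at 9.32 ± 0.300, 7.11 ± 1.28 and 8.81 ± 1.38 and Zeb2 at 9.84 ± 1.94, 7.07 ± 1.53 and 8.62 ± 1.29, and neither was called against WT (adjusted p = 0.599 and 0.396).

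The same lists were counted in C185G against C185Gneo, with 29.2% of all genes higher and 28.7% lower. Here 2 other claudins rose and 5 fell, 3 membrane proteins rose and 3 fell, 4 plaque genes rose and 7 fell, 4 adherens junction genes rose and 14 fell, 5 connexins and pannexins rose and 5 fell, 4 desmosome genes rose and none fell, and 4 epithelial regulators rose and 9 fell. Of the repressors, Zeb1 and Zeb2 rose and Tcf4 fell, and the calls of both Zeb genes were lost without C185Gneo library 1 or C185G library 4. In the same comparison 10 of 14 mesenchymal markers were called higher, and C185Gneo library 1 had their lowest sum, at 257 normalized CPM against 573 to 655 in the other C185Gneo libraries; the part of this in the calls of Zeb1 and Zeb2 was not tested. In C185Gneo against WT limma called none of these 8 lists' genes. The lists of C185G against WT and C185Gneo against WT share the WT libraries.

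The profiles most like those of the called junction genes were sought by root mean square distance of centred log2 values over the 12 libraries, among 11590 genes with at least 5 normalized CPM. For Cdh1 they were Nfib at 0.031 log2 units, Thoc2 at 0.032 and Add1 at 0.035, against a spread of Cdh1 around its own mean of 0.088. For Cldn3 they were Armc5 at 0.035, Acin1 at 0.048 and Mark2 at 0.049, against an own spread of 0.14. For Cldn4 they were Mrpl17 at 0.065, Nop58 at 0.070 and Pgam5 at 0.075, against a spread of Cldn4 around its own mean of 0.26. Cldn7 was nearest to Slc35a2, Pgrmc2 and Brd8 (0.044 to 0.048), and Tjp1 to Smc3, Actr8 and Tnks2 (0.038 to 0.044), against their own spread of 0.11 and 0.077. None of the nearest genes was a junction gene of the lists above. These lists are a small part of the 11590 genes, so this says little about whether junction genes change together.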

How the data were processed

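The deposited unit is log2, with 1 file per library and 16080 genes in each. The spacing of the values shows that the authors had added 0.5 to a whole count and applied a library-specific factor before taking the log2. Per the submitters' processing notes, STAR, limma and mm10 were used, named without versions. What counted the reads, with which annotation and strand handling, is not given in the sources used here. Per the labels, lungs were digested with Dispase and DNase, and mesenchymal and CD45-positive cells were depleted.

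Undoing that step gave whole counts for 100% of values, within 1e-06. Totals were 15659512 to 23444287 counts per library. Symbols and exon lengths came from GENCODE release M21 (GRCm38), which named 16017 genes. limma 3.58.1 in R 4.3.3 fitted the 12 libraries together, with genotype as the only factor (lmFit, eBayes with trend and robust), and p-values were adjusted over all genes by Benjamini-Hochberg, with calls at an adjusted p under 0.05. The code of the fit was run on simulated counts with few changed genes, a fixed spread between replicates and scaling to library totals. That run cannot show how the results depend on the scaling. The unit is log2, so the count test named in the design for count files was not used. Fold changes are relative to the bulk of the transcriptome. Replicates of a group differed by more than sampling noise, with a chi-square per degree of freedom of 5.58 to 23.8 over genes.

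The members and the gene lists were chosen with earlier results of these data known. From each list, the 4 measured genes with the smallest p in C185G against WT were named, with up to 2 called against the list's main direction; Cldn5, Cldn10, Cdh5 and Sftpc were always named, and for each called member the 3 genes nearest in profile. Some genes that this rule names are not reported here. Alternatives were other scalings, error models, filters, weights, a replicate block, fewer libraries and each library left out. Figures used Python 3.11.15 and matplotlib 3.10.9.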

Additional observations from a re-analysis of the deposited data

Results flagged for a closer look

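Of 153 group values tested for a library far from the other 3 of its group, 5 were marked, and chance marks about 1 in 20. Among the 24 values of the 8 junction genes, 1 was marked: Cldn18 in C185G library 1, at 518 normalized CPM, against 612 to 631 in the other C185G libraries. Without that library, the Cldn18 change against WT was -0.07 (adjusted p = 0.374). C185G library 1 was also marked for Elf3, at 97.9 against 74.2 to 77.1. In C185Gneo library 4, Elf3 was at 170, against 150.5 to 151.3 in the others, and Cdh5, a marker of endothelial cells, at 15.2, against 8.78 to 9.88. Vcl in WT library 3 was at 225, against 255 to 259.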

How the results depend on the processing

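The calls of Cldn4 (log2 change 0.41 to 0.63 against WT and 0.48 to 0.70 against C185Gneo) and Cldn3 (-0.31 to -0.20 and -0.28 to -0.17) held in both C185G comparisons under all 10 alternative settings and without each library in turn. The number of junction genes called in C185G against WT was 5, but 3 under quantile normalization and 2 with library totals, where the median of all genes moved by 0.08, and 7 with median of ratios and 6 with a minimum mean of 5 CPM or quality weights; it was 4 to 6 without each library. Cdh1 turned to 0.020 against WT and 0.033 against C185Gneo under quantile normalization, and was not called with library totals (-0.11 and -0.07). Cldn7 against WT was not called with library totals (-0.13). Tjp1 against WT was not called without the trend (adjusted p = 0.0592), under quantile normalization (0.0514), with library totals (0.362), with 8 libraries (0.0642) or with quality weights (0.0523). Ocln against WT was called with median of ratios (0.0423), a minimum mean of 5 CPM (0.0494), quality weights (0.0274) or without C185G library 1 (0.0135), and Gja1 with median of ratios (0.0436), quality weights (0.0299) or without C185G library 1 or 3 or C185Gneo library 4 (0.0218 to 0.0497). Against C185Gneo, Cldn7 was called with quality weights (0.0313) and without C185G library 1 (0.0171), and Tjp1 without C185G library 2 (0.0262). Uncalled estimates that changed sign were Ocln in C185G against C185Gneo with library totals (0.019), Cldn3 in C185Gneo against WT with quality weights (0.0057) and, without single libraries, Ocln against C185Gneo (-0.092 to 0.017), Cldn3 (-0.063 to 0.019) and Cldn18 (-0.076 to 0.015) in C185Gneo against WT, Zeb1 in C185G against WT (-0.0049 to 0.18) and the log2 Cldn4 to Cldn3 ratio in C185Gneo against WT (-0.13 to 0.033). Apart from what a stricter filter or fewer libraries bring by construction, the cause of these changes was not tested.

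With a minimum mean of 5 CPM, which removes low genes, 3 other claudins, 5 of the connexin and pannexin list and 1 repressor were called against WT. Against C185Gneo, 2 claudins and 5 of the connexin and pannexin list were called. Without single libraries 1 to 3 repressors were called against C185Gneo, and 0 to 1 plaque genes in C185Gneo against WT, where quality weights also called 1. Replicate numbers did not pair the libraries: correlations of same-numbered deviations were -0.126 to 0.182, with 2 of 12 over 0.1, and 4 of 12 libraries correlated best with their own number. With the replicate number as a block, Tjp1 against WT had an adjusted p of 0.0548, 4 of the 8 junction genes were called against WT, and 1 adherens junction gene was called in C185Gneo against WT. Library depth limits the precision for genes such as Cldn22, with 8 to 42 counts, and not for the 8 junction genes.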
